A study of Mus musculus with 16 samples.

Results

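The genes described here carry the catecholamine signal into fat cells. They are 4 adrenergic receptor genes (Adrb1, Adrb3, Adra1a and Adra2a), the adenylyl cyclase gene Adcy3, the phosphodiesterase genes Pde3b and Pde4d, and the protein kinase A subunit genes Prkar2b and Prkaca. They were chosen by name, and each was found among the 22911 genes with a named probe on the array. Where a gene had several of the 17 probes that name these 9 genes, the probe with the highest mean over all arrays stood for it.

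Sympathetic nerves release noradrenaline in fat. Beta-adrenergic receptors couple to the stimulatory G protein, adenylyl cyclase then makes cAMP, and cAMP frees the catalytic subunits of protein kinase A (PKA) from its regulatory subunits. In adipocytes PKA starts lipolysis and, in brown fat, thermogenesis, whereas alpha-2 receptors lower cAMP through the inhibitory G protein, alpha-1 receptors act through calcium, and phosphodiesterases break cAMP down.

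RNA came from brown adipose tissue (BAT) and gonadal white adipose tissue (gWAT) of male C57BL/6NCrSlc mice kept at 23 °C, on 16 arrays, 4 for each combination of tissue and genotype. The Adipo-Pgam1 KO mice carried floxed alleles of Pgam1, a glycolytic enzyme gene, and Adipoq-Cre, whose adiponectin promoter directs Cre recombinase to adipocytes, so that other cells of the tissue keep the gene. Controls were littermates that the labels call wild-type and that the paper describes as carrying the floxed alleles without Adipoq-Cre. All mice were 16 weeks old except replicate 4 of the KO mice in both tissues, which was 14 weeks old. Whole tissue was measured, so fewer cells of a type and less RNA per cell cannot be told apart.

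Values are log2 intensities over the 75th percentile of the array, so a value of 0 equals that percentile and levels are compared only within a gene. Pgam1 itself fell in BAT by 1.74 (log2, standard error 0.11, adjusted p = 1.11e-05) but was higher by 0.95 in the gWAT arrays of KO mice (standard error 0.19, adjusted p = 0.0139). The gWAT arrays are therefore called the arrays labelled Adipo-Pgam1 KO, and each gWAT direction below rests on that label. The tissue labels fitted their markers: Ucp1, which marks brown fat, was well above background on all 8 BAT arrays, on 0 of 4 gWAT control arrays and on 3 of 4 gWAT arrays of KO mice. Of the BAT arrays, 3 controls lay on a slide of their own and only control replicate 4 shared the slide of the KO arrays. Likewise, 3 gWAT controls lay on another slide than the labelled KO arrays, which only control replicate 4 joined. The slide of the labelled KO arrays was also scanned on another day than all other arrays.

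In GRCm38.p6 coordinates from RefSeq, the receptor genes lie at chr19:56722117-56725150 (Adrb1), chr8:27225776-27230845 (Adrb3), chr14:66635251-66771240 (Adra1a) and chr19:54045259-54048982 (Adra2a). Adcy3 lies at chr12:4133116-4213525, Pde3b at chr7:114415222-114537938 and Pde4d at chr13:108654177-109955969. The kinase subunit genes lie at chr12:31958450-32061648 (Prkar2b) and chr8:83972978-83996444 (Prkaca).

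PKA phosphorylates CREB, which binds the cAMP response element (CRE), TGACGTCA, or its shorter core, TGACG, read CGTCA on the other strand. Windows of 250 bases before to 50 bases after a transcription start were given by RefSeq for 6 of the 9 genes, in 9 windows. None of these windows held the full CRE, which stood in 1.80% of all 32544 windows. The shorter core, which 20.9% of all windows held, stood in 3 of the 9, one each of Adrb1, Adra2a and Prkaca. The 250 bases before the start of these 3 are shown 5′ to 3′ on the plus strand, since they hold the only such matches among these genes, with the core in capitals. A match is a description of letters and not a binding site.
Adrb1, chr19:56721867-56722116: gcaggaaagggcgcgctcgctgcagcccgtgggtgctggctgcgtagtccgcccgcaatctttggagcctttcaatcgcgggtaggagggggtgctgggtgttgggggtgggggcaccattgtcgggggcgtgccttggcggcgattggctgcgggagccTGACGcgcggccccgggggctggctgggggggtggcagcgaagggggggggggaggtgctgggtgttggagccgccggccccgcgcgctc
Adra2a, chr19:54045009-54045258: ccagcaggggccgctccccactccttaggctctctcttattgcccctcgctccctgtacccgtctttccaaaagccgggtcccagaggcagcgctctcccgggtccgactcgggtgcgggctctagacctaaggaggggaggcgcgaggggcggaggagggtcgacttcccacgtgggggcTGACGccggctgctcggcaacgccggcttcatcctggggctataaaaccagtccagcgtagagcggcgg
Prkaca, chr8:83972728-83972977: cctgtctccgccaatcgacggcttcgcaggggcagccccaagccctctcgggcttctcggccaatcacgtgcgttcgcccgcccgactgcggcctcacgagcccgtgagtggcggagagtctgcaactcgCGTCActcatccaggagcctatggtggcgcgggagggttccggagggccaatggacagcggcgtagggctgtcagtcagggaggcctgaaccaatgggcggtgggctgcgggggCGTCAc
Counted from the start, with negative positions before it, the core begins at -90 in Adrb1 and at -69 in Adra2a, and in Prkaca at -120 and at -6.

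In BAT, loss of Pgam1 in adipocytes went with lower expression of all 8 of these genes that could be tested, at an adjusted p under 0.05 in limma. Of all 14280 genes tested in BAT, 34.0% were lower and 27.5% higher at that threshold, 61.5% in all, so a call in BAT was common. The log2 changes ran from -0.68 for Pde4d to -2.19 for Adrb3, with a median of -1.40 against -0.081 over all genes tested. Control and KO arrays did not overlap for 7 of the 8, compared with 57.1% of all genes, and Adrb1 was the exception. Adra2a could not be tested in BAT, where its 4 KO arrays all read above the controls but mostly within background. Without the filter on dim probes, all 9 genes passed, with Adra2a higher.

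In gWAT, 3 of the 8 genes tested passed the same threshold: Adrb3 and Pde3b were lower and Pde4d was higher in the labelled KO arrays. Over all 14149 genes tested there, 17.8% passed, 9.99% higher and 7.85% lower. The groups did not overlap for these 3 and for Adrb1 and Adcy3, compared with 24.1% of all genes. The change differed between the tissues for 7 of the 9 genes (48.3% of all 14820 genes tested), 6 of them with a positive difference of gWAT change minus BAT change and Adra2a with a negative one, compared with 27.4% of all genes with a positive and 21.0% with a negative one. In control mice, 8 of the 9 differed between BAT and gWAT (64.7% of all 14304 genes tested), with 6 higher and 2 lower in BAT, against 35.4% higher and 29.3% lower of all genes. The control arrays of the tissues did not overlap for those 8, nor for 60.8% of all genes. Adra2a, counted among the 8, was not well above background on any BAT control array.

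**Figure D1:**
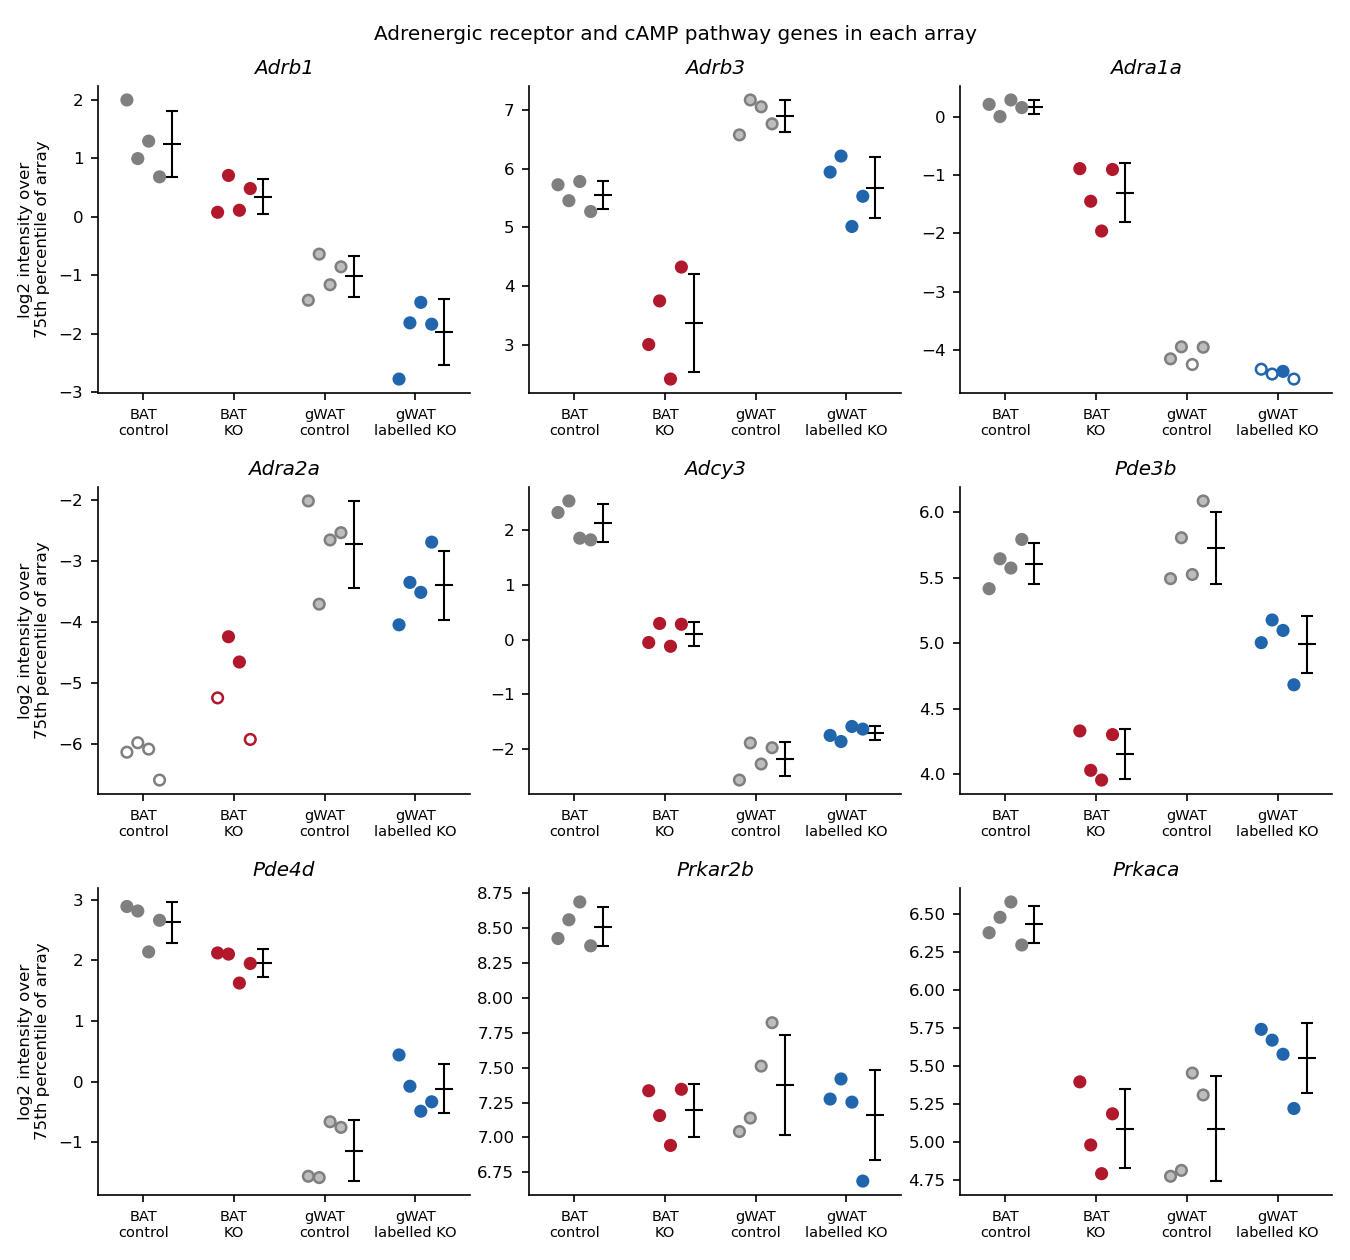
Log2 intensity over the 75th percentile of the array for the 9 genes, with 1 point per array in 4 groups of 4 arrays; open points were not well above background, and bars give the mean and SD where all 4 arrays of a group were. In BAT, the KO points lie below the control points for 7 genes and overlap them for Adrb1, while Adra2a is near or below background. In gWAT, labelled KO points lie below controls for Adrb3, Pde3b and, by a narrow gap, Adrb1, and above them for Pde4d and Adcy3. Those of Adra1a also lie below controls, but near background.

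The gWAT calls rested on few arrays and on the slides. Without gWAT control replicate 2, 0 of the 8 genes passed the threshold, and without labelled KO replicate 1 or 3, 1 did. With slide fitted as a fixed block, which compares the labelled KO arrays with a single control array, 0 of 8 passed in gWAT, where the differences were -1.09 for Adrb3, -1.10 for Pde3b and 0.64 for Pde4d (adjusted p = 0.252, 0.0818 and 0.496). In BAT the same block kept 6 of 8 below the threshold, and Adrb1 (-0.34, adjusted p = 0.496) and Pde4d (-0.71, adjusted p = 0.0967) no longer passed. Of the 7 differences between the tissues, this block kept those of Adcy3 (1.99, adjusted p = 0.00623) and Prkaca (1.45, adjusted p = 0.0237).

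Adrb3 encodes the beta-3 receptor, the main beta receptor of rodent adipocytes, and it showed the largest fall of the 8 genes in BAT. In BAT it stood at 5.73, 5.45, 5.78 and 5.27 in control replicates 1 to 4 and at 3.003, 3.75, 2.41 and 4.32 in the KO replicates. Every KO array lay below every control, and the KO arrays were spread more widely, with replicate 4 the highest and replicate 3 the lowest. Expression in KO mice was 0.220 of that in controls (log2 change -2.19, standard error 0.37, adjusted p = 9.78e-04). In gWAT, Adrb3 stood at 6.58, 7.17, 7.05 and 6.76 in controls and at 5.94, 6.21, 5.01 and 5.53 in the labelled KO arrays. Again the groups did not overlap, and expression fell by 1.22 (standard error 0.26, adjusted p = 0.0181), to 0.430 of the control level. Without gWAT control replicate 2 the fall was 1.12 (adjusted p = 0.0520).

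The fall of Adrb3 was not shown to differ between the tissues (0.97, standard error 0.49, adjusted p = 0.115). In 3 of 28 alternative fits the difference passed. It was 1.29 without BAT KO replicate 4 (adjusted p = 0.0233) and 1.27 with the mean over its probes (adjusted p = 0.0385). Scaled by Actb and Rplp0, it was 1.50 (adjusted p = 0.0121). In controls, Adrb3 was lower in BAT than in gWAT, by 1.33 (standard error 0.17, adjusted p = 2.09e-04). Its 4 groups therefore ran from gWAT controls, the highest, to BAT KO, the lowest, while the labelled KO arrays of gWAT and the BAT controls overlapped in between. The other probe of Adrb3 gave differences of -2.48 in BAT and -0.92 in gWAT, and its groups did not overlap in either tissue.

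Adrb1 encodes the beta-1 receptor, which brown adipocyte precursors also use. In BAT, its values were 1.99, 0.99, 1.29 and 0.68 in controls and 0.074, 0.70, 0.11 and 0.48 in KO mice, so control replicate 4 lay just below KO replicate 2. The change was -0.90 (standard error 0.28, adjusted p = 0.0205), and an exact permutation test of these values alone gave p = 0.0571. Leaving out KO replicate 1 or 3 raised the adjusted p to 0.0557 or 0.0530, and under spike-in scaling the change was -0.35 (adjusted p = 0.265). In gWAT, Adrb1 read -1.43, -0.64, -1.16 and -0.86 in controls and -2.78, -1.82, -1.47 and -1.84 in the labelled KO arrays. The groups were separated only by a narrow gap, and the difference of -0.95 did not pass the threshold (standard error 0.29, adjusted p = 0.0529). Between the tissues the 2 changes differed by -0.054 (standard error 0.43, adjusted p = 0.930). Controls expressed 4.80 times as much Adrb1 in BAT as in gWAT (log2 2.26, standard error 0.29, adjusted p = 1.81e-04).

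Adra1a encodes the alpha-1A receptor, which signals through Gq. Its BAT control values were tightly grouped at 0.22, 0.0075, 0.29 and 0.16, and the KO values were -0.89, -1.45, -1.96 and -0.90. All KO arrays were thus lower than all controls, and the mean fell by 1.47 (standard error 0.23, adjusted p = 6.56e-04). In gWAT the probe rose clearly over background in 3 of 4 controls and 1 of 4 labelled KO arrays, and the genotypes were not tested. BAT controls exceeded gWAT controls 18.9-fold (log2 4.24, standard error 0.12, adjusted p = 1.45e-07). The change differed between the tissues by 1.14 (standard error 0.27, adjusted p = 0.00305), with the gWAT values lying near background. The other probe of Adra1a, for another transcript, was above background on all BAT control arrays and on 1 of 4 BAT KO arrays.

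Adra2a encodes the alpha-2A receptor, which inhibits lipolysis. Of the BAT arrays, 0 of 4 controls and 2 of 4 KO measured it well above background, as did all gWAT arrays. The gWAT values were -2.01, -3.70, -2.65 and -2.53 in controls and -4.04, -3.35, -3.51 and -2.69 in the labelled KO arrays, which overlapped (difference -0.67, standard error 0.39, adjusted p = 0.252). In controls, the limma difference of BAT minus gWAT was -3.47 (adjusted p = 3.36e-05), computed on BAT values within background, so its size was not measured. As a bound without a test, expression was at least 2.36-fold higher in gWAT than in BAT. This bound sets the gWAT mean against the dimmest signals well above background on the BAT arrays. The interaction of -1.86 (standard error 0.55, adjusted p = 0.0125) rests on BAT signals that were mostly not above background, so its size was not measured.

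**Figure D2:**
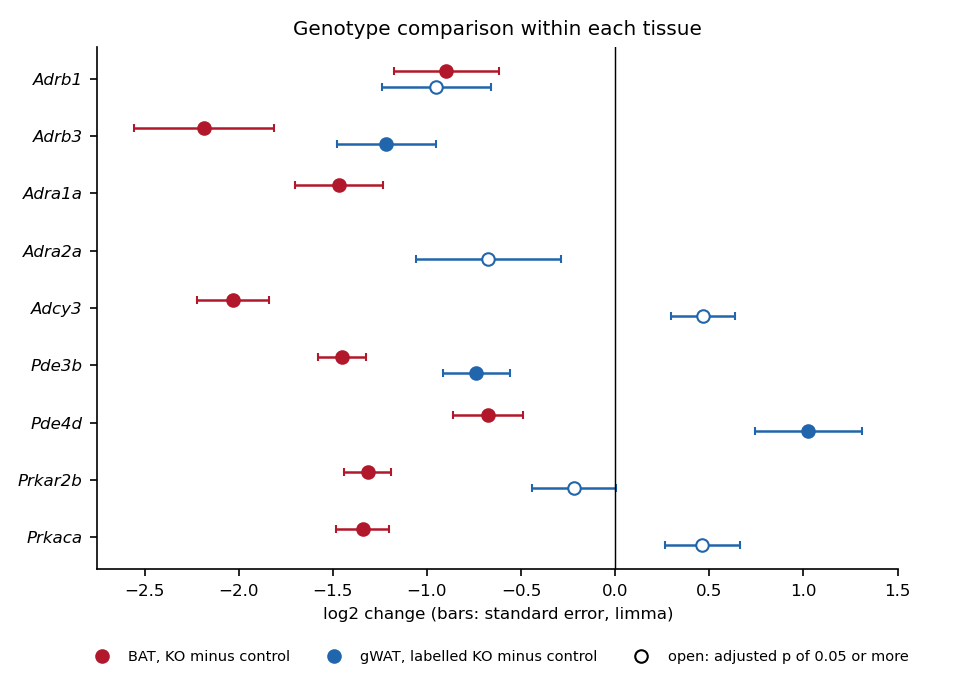
Log2 change with its standard error from limma for each gene in BAT (Adipo-Pgam1 KO minus control) and in gWAT (arrays labelled KO minus control), 4 arrays per group; open points did not pass an adjusted p of 0.05, and genes not tested in a tissue have no point. All BAT points lie left of 0, whereas the gWAT points run from -1.22 (Adrb3) to 1.03 (Pde4d).

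Adcy3 encodes one of the membrane adenylyl cyclases. BAT controls stood at 2.32, 2.53, 1.85 and 1.82, and BAT KO arrays at -0.052, 0.30, -0.12 and 0.28. The KO level was 0.245 of that of controls (log2 change -2.03, standard error 0.19, adjusted p = 4.22e-05). In gWAT the controls stood at -2.56, -1.89, -2.27 and -1.97 and the labelled KO arrays at -1.75, -1.86, -1.58 and -1.63. All labelled KO arrays were above all controls by a small margin, and the difference of 0.47 did not pass the threshold (standard error 0.17, adjusted p = 0.0870). It passed under spike-in scaling (0.86, adjusted p = 0.00809), where the median of all genes was 0.44. The change differed between the tissues by 2.50 (standard error 0.26, adjusted p = 1.16e-05). This was the largest interaction of the 9 genes by the probe that stood for each gene. By these probes, Adcy3 also had the widest depot difference among those of the 9 genes that were well above background on all 16 arrays. It was 19.8-fold higher in BAT than in gWAT of controls (log2 4.30, standard error 0.22, adjusted p = 1.46e-06). A further probe of Pde4d, A_55_P2010396, differed more between the control tissues, by 5.08. No group overlapped another for Adcy3: BAT controls were highest, then BAT KO, then the labelled KO arrays of gWAT, then gWAT controls.

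Pde3b, the phosphodiesterase through which insulin lowers cAMP in adipocytes, fell in both tissues. Its BAT values were 5.42, 5.64, 5.57 and 5.79 in controls and 4.33, 4.03, 3.95 and 4.30 in KO mice, a change of -1.45 (standard error 0.13, adjusted p = 3.26e-05). In gWAT the values were 5.49, 5.80, 5.52 and 6.09 in controls and 5.003, 5.18, 5.10 and 4.68 in the labelled KO arrays, a change of -0.74 (standard error 0.18, adjusted p = 0.0251). The groups did not overlap in either tissue. The gWAT call was lost without control replicate 2, labelled KO replicate 1 or labelled KO replicate 3 (adjusted p = 0.0678, 0.0617 and 0.0570). It was also lost under spike-in scaling (-0.34, adjusted p = 0.0642), median centring (-0.62, adjusted p = 0.125) and without the filter on dim probes (adjusted p = 0.0647). The BAT fall was larger by 0.72 (standard error 0.22, adjusted p = 0.0143), but by 0.17 under quantile normalization (adjusted p = 0.458). Pde3b was the only one of the 9 genes that did not pass between BAT and gWAT of controls, whose values overlapped (-0.12, standard error 0.16, adjusted p = 0.529), although it passed under quantile normalization (-0.60, adjusted p = 0.00541). A further Pde3b probe read -1.54 in BAT and -0.91 in gWAT.

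Pde4d, a cAMP-specific phosphodiesterase, was lower in BAT of KO mice and higher in the labelled KO arrays of gWAT. BAT controls stood at 2.89, 2.81, 2.14 and 2.66, and KO arrays at 2.12, 2.10, 1.62 and 1.95, so that the lowest control was only just above the highest KO array. The change was -0.68 (standard error 0.19, adjusted p = 0.0124), but under spike-in scaling it was -0.13 and did not pass (adjusted p = 0.638). In gWAT, controls stood at -1.56, -1.58, -0.66 and -0.76 and the labelled KO arrays at 0.44, -0.078, -0.49 and -0.33. Controls fell into a lower and a higher pair, all below the labelled KO arrays, and expression rose by 1.03 (standard error 0.28, adjusted p = 0.0397), or 2.04-fold. This call was lost without control replicate 1 or 2 or labelled KO replicate 1, 2 or 3, with adjusted p-values of 0.0838, 0.0994, 0.0944, 0.0904 and 0.0589. The change differed between the tissues by 1.70 (standard error 0.36, adjusted p = 0.00149). Controls held 13.6 times as much Pde4d in BAT as in gWAT (log2 3.77, standard error 0.27, adjusted p = 7.20e-06).

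Of the 5 Pde4d probes, 4 were well above background on all 16 arrays. All 4 were lower in BAT of KO mice, by 0.51 to 1.04, and higher in the labelled KO arrays of gWAT, by 0.91 to 2.29. For 1 of the 4 probes, A_65_P12530, the groups overlapped in both tissues. The fifth probe, made for a predicted transcript, was not well above background on any array.

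**Figure D3:**
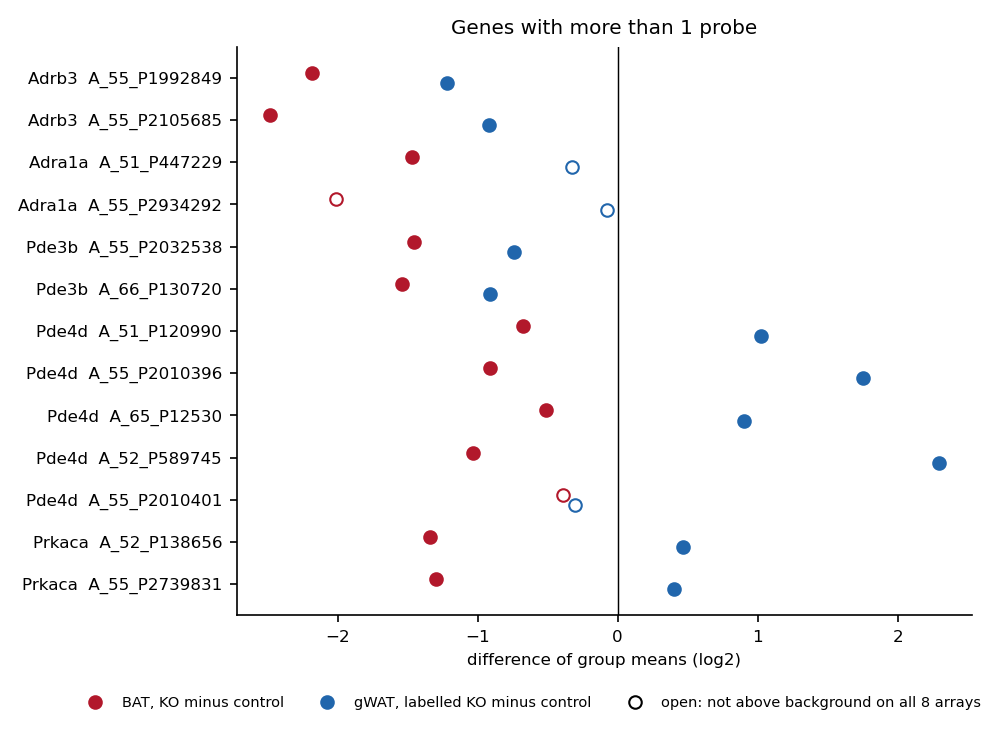
Difference of group means (log2) for each probe of the 5 genes with more than 1 probe, in BAT and in gWAT, 4 arrays per group; open points were not well above background on all 8 arrays of the tissue. All 4 measured Pde4d probes lie left of 0 in BAT and right of 0 in gWAT, and both Adrb3 and both Pde3b probes lie left of 0 in both tissues.

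Prkar2b encodes RII-beta, the main PKA regulatory subunit of adipocytes. It stood at 8.42, 8.56, 8.69 and 8.37 in BAT controls and at 7.33, 7.16, 6.94 and 7.34 in BAT KO arrays, well apart. Its change was -1.32 (standard error 0.12, adjusted p = 4.57e-05). In gWAT the values were 7.04, 7.14, 7.51 and 7.82 in controls and 7.27, 7.42, 7.25 and 6.69 in the labelled KO arrays, which overlapped (-0.22, standard error 0.22, adjusted p = 0.520). That gWAT difference passed the threshold under quantile normalization (-0.55, adjusted p = 0.0191) and turned positive under spike-in scaling (0.18). The change differed by 1.095 between the tissues (standard error 0.26, adjusted p = 0.00339), and by 0.27 under quantile normalization (adjusted p = 0.232). BAT controls were 2.19-fold above gWAT controls (log2 1.13, standard error 0.18, adjusted p = 6.91e-04), but under quantile normalization the difference was 0.17 (adjusted p = 0.241). The BAT KO arrays lay among the gWAT values.

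Prkaca encodes the PKA catalytic subunit C-alpha. In BAT it read 6.38, 6.48, 6.58 and 6.30 in controls and 5.40, 4.98, 4.79 and 5.19 in KO mice, again without overlap. The fall was to 0.394 of the control level (log2 change -1.34, standard error 0.14, adjusted p = 7.85e-05). The gWAT values of 4.78, 4.82, 5.45 and 5.31 in controls and 5.74, 5.67, 5.58 and 5.22 in the labelled KO arrays overlapped. The difference of 0.46 did not pass (standard error 0.20, adjusted p = 0.133). Under spike-in scaling it was 0.86 and passed (adjusted p = 0.00154), with the median of all genes then at 0.44. The tissues differed in the change by 1.81 (standard error 0.25, adjusted p = 6.94e-05). In controls, Prkaca was 2.54-fold higher in BAT (log2 1.34, standard error 0.18, adjusted p = 2.09e-04). The other Prkaca probe gave -1.30 in BAT and 0.40 in gWAT.

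The size of the BAT falls depended on what the arrays were scaled by, and markers of cell types moved with genotype. Of 8 adipocyte markers, 7 were lower in BAT of KO mice, with a median change of -1.09, and Retn alone did not pass. The summed linear level of the 8, in units of the 75th percentile, was 2436 to 2669 in controls and 817 to 1161 in KO mice. Macrophage markers went the other way, with 7 of 8 higher, all but Itgam, and a summed level of 29.8 to 42.7 in controls and 105 to 157 in KO mice. All 5 fibroblast and progenitor markers were higher, with sums of 117 to 163 and 213 to 307. Of 5 T cell markers tested, 3 were higher (Cd3g, Cd3d and Lck), with a median of 1.35 over the 5. Cd3e and Cd4 did not pass, and every KO array lay below every control for Cd4. Summed T cell markers did not rise, at 3.56 to 6.15 in controls and 3.92 to 5.75 in KO mice. Brown adipocyte markers were lower for 5 of 7, with a median of -1.23 and sums of 3379 to 3636 in controls and 1155 to 1854 in KO mice. Skeletal muscle markers summed to 106 in BAT KO replicate 1 and to 20.2 in replicate 3, compared with 1.54 and 2.03 in the other KO arrays and at most 1.21 in controls. Leaving out either of those 2 arrays ended the call of Adrb1 alone among the 8. The part of these cells in the BAT changes was not tested.

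When the arrays were instead scaled by the adipocyte markers, a choice made after seeing the data, only 3 of the 8 genes passed in BAT. Of all genes 11776 then passed, 11365 of them higher, as this scaling adds the same shift to every gene of an array. Adrb3 (-0.96, standard error 0.32) and Adcy3 (-0.81, standard error 0.23) were still lower, and Pde4d was higher (0.55, standard error 0.20, adjusted p = 0.0236), though below the median of 1.14 over all genes. Adra1a, Pde3b, Prkar2b and Prkaca then differed by -0.24 to -0.091 and Adrb1 by 0.33, and none of these 5 passed. This scaling moved the median of all genes in BAT by 1.22, compared with 0.55 for the spike-in controls and -0.59 for Actb and Rplp0, under all of which Adrb3 and Adcy3 passed the threshold in the same direction.

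**Figure D4:**
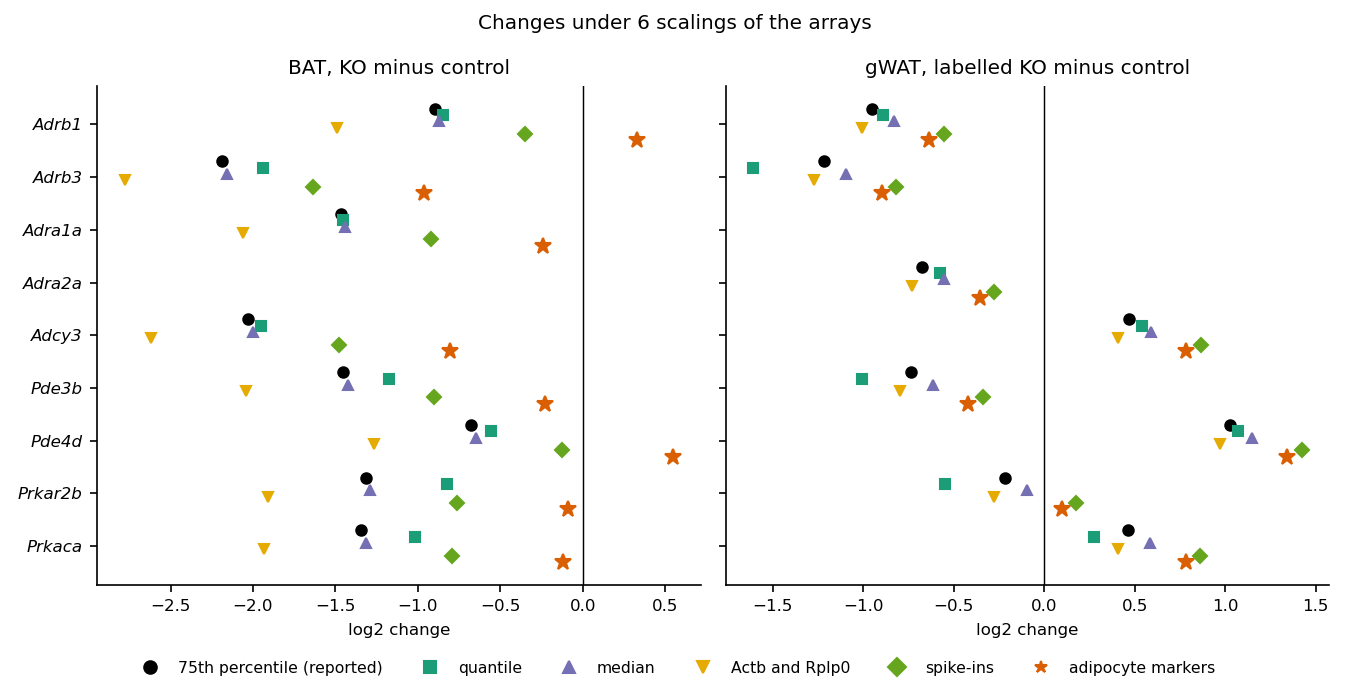
Log2 change of each gene in BAT and in gWAT under 6 scalings of the arrays: the reported 75th percentile, quantile normalization, the median, Actb with Rplp0, the spike-in controls and the adipocyte markers. In BAT, Adrb3 and Adcy3 stay left of 0 under each, Adrb1 and Pde4d cross 0 under the adipocyte markers, and in gWAT Prkar2b crosses 0 under the spike-ins and the adipocyte markers.

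In gWAT, adipocyte markers moved less, with Adipoq and Retn lower among 8 and sums of 2225 to 3493 in controls and 1906 to 2553 in the labelled KO arrays. Of 4 brown adipocyte markers tested there, Cidea, Cox8b and Elovl3 were higher past the threshold. Ppargc1a did not pass, at -1.22 to 0.062 in controls and -1.88 to -0.59 in the labelled KO arrays. Zic1 was not well above background on any gWAT array. Summed brown adipocyte markers were 20.6 to 51.0 in controls and 109 to 288 in the labelled KO arrays. Summed smooth muscle and pericyte markers were also higher, at 25.7 to 40.4 and 53.4 to 85.6. Of these 5 markers Acta2 alone passed, and their median change was -0.040. Skeletal muscle markers summed to 3.17 to 24.9 in controls and 30.2 to 58.1 in the labelled KO arrays, and 0 of the 4 tested passed. Among macrophage markers, 1 of 8 passed, Cd68. Whether these cells had a part in the gWAT changes was not tested. With the adipocyte markers as the scale, 5 of 8 genes passed in gWAT: Adrb3 (-0.90) and Pde3b (-0.42) lower, and Pde4d (1.34), Adcy3 (0.78) and Prkaca (0.78) higher. Of all genes 5060 then passed, 4659 of them higher, against 2525 before, and the median of all genes was 0.36.

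Around these 9 genes, 111 further genes of the pathway were listed by role. In BAT, 98 of them could be tested, and 24 were higher and 37 lower in KO mice, 62.2% in all against 61.5% of all genes. Their median change was -0.19. With the slide as a fixed block, 46 of these 61 calls in BAT passed, and 1 of the 61 changed sign.

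Among the remaining adrenergic receptors in BAT, Adra1d fell by 1.19 (standard error 0.31, adjusted p = 0.00937). Adra1b was at least 1.32-fold higher in KO mice, as 0 of 4 control arrays were well above background. Its limma difference of 0.59 (adjusted p = 0.0321) was computed on those background values. The values of Adra1b overlapped between the groups. Adra2b (0.16, adjusted p = 0.555) and Adra2c (-0.35, adjusted p = 0.367) did not pass. Of 10 other receptors that raise cAMP through Gs, 5 were higher, among them the prostaglandin E2 receptor gene Ptger4 (1.31) and the parathyroid hormone receptor gene Pth1r (1.11). The adenosine receptor gene Adora2b was at least 2.39-fold higher, and Ptger2 and the glucagon receptor gene Gcgr made up the 5. With the slide block, Pth1r (0.64, adjusted p = 0.206) and Gcgr (0.62, adjusted p = 0.116) no longer passed. Mc5r (-2.47), a melanocortin receptor gene, and Gpr3 (-0.38), whose receptor signals without a ligand, were lower. Of 6 receptors that lower cAMP through Gi, 3 fell: Ptger3 (-2.03), the adenosine A1 receptor gene Adora1 (-1.65) and the lactate receptor gene Hcar1 (-1.53).

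The G protein and cyclase steps also fell for several genes in BAT. Gnas, which encodes the stimulatory alpha subunit, changed by -1.83 (standard error 0.18, adjusted p = 5.17e-05), and Gnao1 (-0.98), Gnai1 (-0.97) and Gna11 (-0.79) were lower too, whereas the inhibitory Gnai2 (0.61) and Gnaq (0.22) were higher. Adcy6 (-1.86), Adcy10 (-1.48) and Adcy9 (-1.10) were lower, and Adcy7 alone of the 6 cyclases tested was higher (2.33, standard error 0.20, adjusted p = 3.14e-05). Among 7 genes of receptor desensitisation, the arrestin gene Arrb2 (1.47) and the receptor kinase gene Grk2 (0.63) rose, and Rgs2 (-1.62) and Grk3 (-1.45) fell. Of 12 phosphodiesterase genes tested, 6 were lower, led by Pde3a (-2.04) and Pde4a (-1.66), and 3 were higher, namely Pde4b (1.56), Pde10a (0.94) and Pde4c (0.79). Pde4c moved with the slide: BAT control replicate 4, on the slide of the KO arrays, read 6.66 and the KO arrays 6.41 to 6.52, while the other controls read 5.28 to 5.42. Fitted with the slide block, its change was -0.18 (adjusted p = 0.271), and Pde3a (-1.13, adjusted p = 0.0933), Pde4b (1.79, adjusted p = 0.145), Gnao1, Gnaq and Grk2 no longer passed either.

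Unlike Prkar2b and Prkaca, most of the remaining PKA genes were higher in BAT of KO mice. The regulatory subunit genes Prkar1a (0.69) and Prkar2a (0.40) and the genes of the PKA inhibitor peptides, Pkia (2.35), Pkib (1.49) and Pkig (0.53), were higher. Prkacb, for the catalytic subunit C-beta, was lower (-0.76), and Prkar1b did not pass (-0.37, adjusted p = 0.136). Pkib also moved with the slide, at 0.56 in control replicate 4 and 0.78 to 0.94 in KO arrays but -1.31 to -0.79 in the other controls, and with the slide block its change was 0.31 (adjusted p = 0.237). Of the 4 control arrays, 3 measured Pkia well above background. Of 9 genes for A-kinase anchoring proteins, which tether PKA, Akap12 rose (1.50) and Akap7 (-1.31), Akap1 (-1.17) and Akap11 (-0.44) fell.

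All 4 lipolytic targets of PKA were lower in BAT. Lipe, for hormone-sensitive lipase, fell by 1.24 (standard error 0.22, adjusted p = 0.00120), Plin1 by 1.06, Abhd5 by 1.04 and Pnpla2, for adipose triglyceride lipase, by 1.04. Lipe and Plin1 were also counted among the adipocyte markers. Of 8 genes known to be induced by cAMP, Dio2 (-2.42), Ucp1 (-1.27) and Nr4a3 (-0.74) were lower, and Ppargc1a, Nr4a1, Nr4a2 and Per1 did not pass. Fgf21 was higher (adjusted p = 1.21e-05), at 1.72 to 2.25 in KO arrays, and the 1 control array of 4 well above background read -3.51. Among 9 CREB and coactivator genes, Crebbp (-0.91), Sik2 (-0.88) and Crtc2 (-0.39) fell and Crtc1 (0.54) and Crtc3 (0.45) rose, while Creb1 did not pass (0.21, adjusted p = 0.169). With the slide block, Crtc1, Crtc2, Sik2 and Akap11 no longer passed.

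Of the genes that make, take up or break down catecholamines, Maoa rose in BAT (1.90) and Slc22a3 (-1.88) and Maob (-1.67) fell. Th, for the rate-limiting enzyme of catecholamine synthesis, did not pass in BAT (-0.45, standard error 0.25, adjusted p = 0.151) or in gWAT (-0.0041, standard error 0.25, adjusted p = 0.993).

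**Figure D5:**
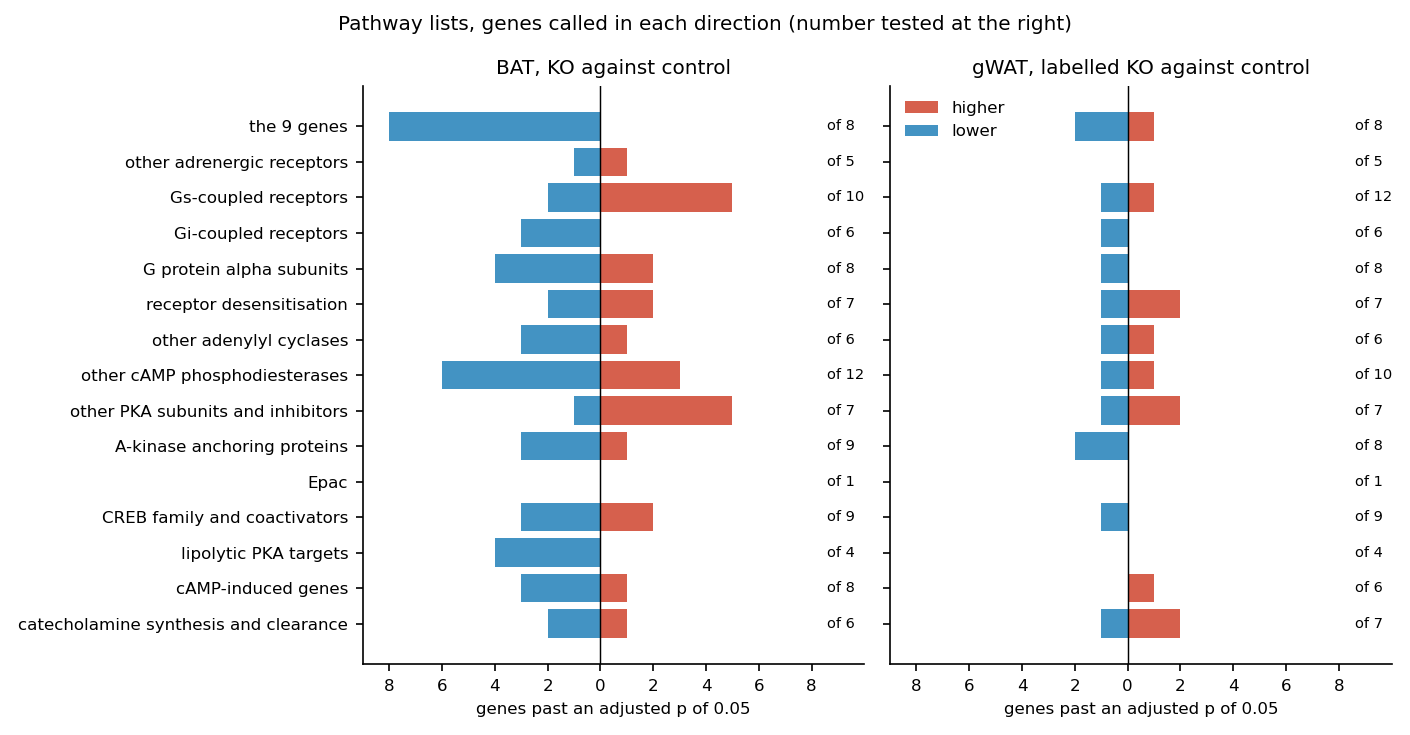
Number of genes past an adjusted p of 0.05 in limma in each pathway list, higher to the right and lower to the left, for BAT and for gWAT; the number tested stands at the right of each bar. The 8 tested of the 9 genes and the 4 lipolytic targets are all lower in BAT, while 5 of 7 other PKA subunit and inhibitor genes are higher there.

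In gWAT, 96 of the 111 further genes could be tested, of which the labelled KO arrays had 10 higher and 11 lower, 21.9% in all against 17.8% of all genes. With the slide as a fixed block, 1 of these 21 passed, Fgf21. Among the remaining adrenergic receptor genes, Adra2b (-0.99, adjusted p = 0.0863) and Adra1d (0.20, adjusted p = 0.488) did not pass. The differences of the 4 lipolytic targets ran from -0.17 (Pnpla2, adjusted p = 0.505) to 0.35 (Plin1, adjusted p = 0.277), and these did not pass either.

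The genes that rose in gWAT included Adcy10 (2.39, standard error 0.38, adjusted p = 0.00668), for soluble adenylyl cyclase, and Pth1r (1.91, standard error 0.38, adjusted p = 0.0140). The receptor kinase genes Grk5 (0.79) and Grk3 (0.77), the phosphodiesterase gene Pde2a (0.84) and the PKA genes Pkia (1.19) and Prkar1a (0.67) rose as well. Among the catecholamine genes Maoa rose by 2.98 (standard error 0.30, adjusted p = 0.00208), on 3 labelled KO arrays, since the irregular spot of replicate 4 was left out. Fgf21 rose by 4.15 (standard error 0.61, adjusted p = 0.00509), with 3 of 4 control arrays well above background.

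Those that fell in gWAT were the secretin receptor gene Sctr (-1.37, standard error 0.35, adjusted p = 0.0303), Pkib (-1.15), Hcar1 (-1.04), Pde1a (-0.86), Gnal (-0.72), Maob (-0.71), Arrb1 (-0.65), Creb1 (-0.61), Akap7 (-0.55), Adcy6 (-0.55) and Akap9 (-0.42). Pkib moved with the slide here too. Control replicate 4, on the slide of the labelled KO arrays, read -0.39, and the labelled KO arrays read -0.81 to -0.51. The other gWAT controls read 0.58 to 1.13. Gnas was higher on all labelled KO arrays than on all gWAT controls but did not pass (0.55, standard error 0.17, adjusted p = 0.0608).

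The change differed between the tissues for 49 of 101 further genes tested, or 48.5% against 48.3% of all genes. For all 4 lipolytic targets, which were lower in BAT and did not pass in gWAT, the gWAT change exceeded the BAT change, led by Plin1 (1.40, standard error 0.27, adjusted p = 8.26e-04). Gnas differed by 2.38 (standard error 0.26, adjusted p = 1.45e-05) and Adcy10 by 3.87 (standard error 0.50, adjusted p = 4.58e-05). In the opposite direction, Pkib differed by -2.65, Adcy7 by -1.91 and Arrb2 by -1.77. With the slide as a fixed block, 16 of the 49 passed, among them Gnas, Adcy10 and Arrb2 but none of the lipolytic targets, and Pkib differed by -0.59 (adjusted p = 0.203).

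Between BAT and gWAT of controls, 73 of 98 further genes differed (49 of these with the slide block), 37 higher and 36 lower in BAT, or 74.5% against 64.7% of all genes. The cyclases were divided: like Adcy3, Adcy10, Adcy9 and Adcy6 were higher in BAT, by 2.01, 1.82 and 0.90, whereas Adcy5 (-5.43) and Adcy7 (-1.77) were lower. Like Pde4d, Pde4a was higher in BAT (3.16). Of the receptors, Tshr was at least 21.1-fold and Adra1b at least 8.81-fold higher in gWAT, and the succinate receptor gene Sucnr1 (-5.21), Mc2r (-3.77) and Gcgr (-3.21) were also lower in BAT. All 6 cAMP-induced genes that passed were higher in BAT, with Ucp1 at least 20756-fold.

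Over the 16 arrays and among 12360 genes well above background on all of them, the genes most like Adrb3 by Pearson's r of log2 values were Acvr1c (0.950), Myl4 (0.945) and Bche (0.941). The genes most like Adcy3 were Slc25a42 (0.990), Acaa2 (0.986) and Sgk3 (0.984). For Pde3b they were Por (0.981), Arxes2 (0.977) and Maco1 (0.972), and for Pde4d, Rmdn3 (0.985), Cox7a1 (0.983) and Cars2 (0.980). These values describe 4 groups of arrays that differ in tissue, genotype, slide and scaling, so they carry no test. Among the genes themselves, Adcy3 was most like Pde4d (0.930), and Adrb3 was most like Pde3b (0.844).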

How the data were processed

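Total RNA of BAT and gWAT was hybridised by the authors to 1-colour Agilent SurePrint G3 Mouse arrays, 16 in all, and read with Agilent Feature Extraction 10.7.1.1. The deposited scanner files hold the intensity of each spot after the scanner software's background subtraction, with flags, and the authors' deposited table holds intensities normalized in GeneSpring, which gave the same changes. Flag columns were used only to drop irregular spots (52 to 98 of 62976 per array) and to call spots well above background.

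Here log2 intensity was set relative to the 75th percentile of each array, whose linear value ran from 401 in BAT controls to 916 in BAT KO arrays; the number of arrays limits the precision. Spots of a probe were averaged and the brightest probe stood for a gene. Of 56605 probes, 32994 had 1 gene symbol. Tested genes were those that every array of 1 or both compared groups measured well above background. Groups were compared with limma 3.58.1 (lmFit and eBayes, R 4.3.3) within each tissue, between the tissues' changes over 16 arrays, and between BAT and gWAT of controls, with Benjamini-Hochberg adjustment over all genes at a threshold of 0.05. The scripts were tested on simulated data. The permutation test was exact and two-sided, with 0.0286 the smallest p that 4 against 4 arrays allow. The labels tie no arrays to separate extractions or tissues to 1 animal, so p-values measure the spread between these arrays.

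Some genes of the pathway lists are not reported here by name. The 9 genes and all lists were chosen with earlier results of these data known. Named were all 9 genes, Pgam1, and per pathway list up to 2 genes of the largest rise and fall, with others where they account for a small count or were chosen after their values were seen. Other alternatives were the background correction, scaling, filter, probe choice, slide and replicate as blocks, the methods' t-test and leaving out each array. Between BAT and gWAT, deviations of same-numbered arrays correlated at 0.22, 0.16 and 0.18 for control replicates 1 to 3. For KO replicates 1 to 3 they correlated at 0.11, 0.11 and 0.29. Differently numbered arrays among these correlated at -0.28 to -0.023. Replicate 4 gave -0.073 in controls and -0.19 in KO mice, so the numbers were not taken to pair the arrays. Whether both tissues came from the same animals cannot be told.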

Additional observations from a re-analysis of the deposited data

Results flagged for a closer look

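The change between controls and KO arrays differed between gWAT and BAT for 7 of the 9 genes by the test of that difference in limma. The gWAT change minus the BAT change was 2.50 for Adcy3, 1.81 for Prkaca, 1.70 for Pde4d, 1.14 for Adra1a, 1.095 for Prkar2b and 0.72 for Pde3b, and it was -1.86 for Adra2a. Adra2a in BAT and Adra1a in gWAT were near background, so the size of those differences was not measured on both sides. The gWAT side rests on the KO label of arrays whose Pgam1 level exceeded that of controls. Tissue and slide changed together in part, and with the slide as a fixed block 2 of the 7 passed. No array stood apart from the other 3 of its group by Dixon's test in any of the 36 groups of 4 values.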

How the results depend on the processing

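In BAT, 8 genes passed, and 6 under spike-in scaling, 6 with the slide as a fixed block and 3 under adipocyte marker scaling, where Adrb1 (0.33) and Pde4d (0.55) turned positive. In gWAT, 3 passed, against 1 with median centring, 1 without the filter on dim probes, 5 with adipocyte marker scaling, 0 with the slide as a fixed block, 0 by the methods' t-test with Benjamini-Hochberg adjustment and 5 without it, and 0 to 3 with 1 array left out. Of the other pathway genes in gWAT, 21 passed, against 10 with median centring, 10 without the filter, 1 with the slide block and 10 with the replicate block, and 10 to 20 with 1 array left out. Over all genes in gWAT the count was 2525, against 5807 (spike-ins), 1384 (median), 5060 (adipocyte markers), 1138 (no filter), 184 (slide), 1088 (replicate block), 4040 (all 16 arrays in 1 fit), 1618 and 4673 (the methods' t-test, adjusted and not), and 1143 to 3237 with 1 array left out. Of differences between the tissues, 7 of the 9 genes passed, against 4 with adipocyte markers and 2 with the slide block, which also gave 20 in place of 49 pathway genes and 3264 in place of 7162 genes.

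Prkar2b in gWAT turned positive under spike-in (0.18) and adipocyte marker scaling (0.097). The difference between the tissues turned positive for Adrb1 with normexp (0.20), median centring (0.040) and Actb with Rplp0 (0.48), and without BAT control replicate 2 (0.029) or 4 (0.13), BAT KO replicate 2 (0.067), gWAT control replicate 2 (0.074) or 4 (0.0013) or labelled KO replicate 1 (0.21), with a range of -0.31 to 0.21 over arrays left out, and negative for Pde3b with adipocyte markers (-0.19). Pde3b between BAT and gWAT of controls turned positive with Actb and Rplp0 (0.21), adipocyte markers (0.59) and the slide block (0.18). The causes were not tested. The share of calls that were higher in BAT was 44.8%, and 80.3% with spike-ins, 17.7% with Actb and Rplp0, 96.5% with adipocyte markers and 31.4% without the filter. In gWAT it was 56.0%, and 94.1% with spike-ins, 71.0% with the median, 92.1% with adipocyte markers and 35.9% with the slide block.

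The deviations of same-numbered gWAT arrays, controls against labelled KO, correlated between -0.14 and 0.43, which does not bear on whether the tissues share animals. With the replicate number as a block, Adrb1 in BAT (adjusted p = 0.0512) and Pde3b (adjusted p = 0.0812) and Pde4d (adjusted p = 0.107) in gWAT no longer passed, and Adrb1 in gWAT did (adjusted p = 0.0491). Of 827 changes of the 9 genes under an alternative, 746 kept direction and side of the threshold.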
